A study of Stylophora pistillata with 18 samples.

Results

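A group of 125 gene models of the stony coral Stylophora pistillata, of 29419 annotated models, had modest transcript levels in seawater and much higher levels after exposure to either of a pair of cyclic dinucleotides. The members were chosen by their measured levels, in CPM (the count of a model divided by the total count of its library and multiplied by 1000000). Mean control CPM had to lie from 1 to under 20, and the lowest of the 12 treated libraries had to exceed the highest of the 6 controls. Of 9940 models in this control window, 241, or 2.42%, met the second condition. These were ranked by a score, the smaller of the mean ratios of the compounds to control, and the 150 highest were taken. Of these, 25 lay on 7 scaffolds set aside by the rule, which left 125 members on 96 scaffolds. The higher level with both compounds is therefore how the members were found, and every comparison of members with seawater below is a description. Fold changes and calls from a fit over all models are printed for those contrasts, but they are not a test of the members.

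RNA was sequenced from wild type adult colonies kept for 18 h in plain seawater (control), with 3'3'-cUA at 250 µM (cUA) or with 2'3'-cGAMP at 250 µM (cGAMP). Both colonies gave 3 specimens per treatment, hence 6 libraries per treatment and 18 in all. Libraries are named by treatment, colony and specimen letter, as in control 2C. Whole colony tissue was used, so a greater number of cells of a type and more RNA per cell cannot be told apart, and the labels do not say how independent the specimens of a colony were.

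cGAS and its relatives are enzymes that, on sensing a foreign nucleic acid or another trigger, join a pair of nucleotides into a cyclic dinucleotide. In vertebrates cGAS makes 2'3'-cGAMP, which binds the receptor STING and switches on antiviral and inflammatory genes, while animals outside the vertebrates carry many cGAS-like receptors, some with other cyclic products. The compounds compared here differ in their bases, uracil and adenine in 3'3'-cUA and guanine and adenine in 2'3'-cGAMP, and in a linkage between the nucleotides. None of the 125 members could be given a function. A reference gene table of the same species matched 64 of them, all under LOC numbers without a description, so members are named by their identifiers in the deposited annotation. For the same reason the tissue could not be checked against marker genes.

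Low abundance describes the members only in part. Of all 29419 models, 40.7% had a mean control level below the window, 33.8% lay in it and 25.5% lay above it, and the median model stood at 2.72 CPM. Members had mean control levels from 1.16 to 18.7 CPM, with a median of 4.70 CPM. By plain CPM, without regard to the length of a model, the median member thus ranked above 55.5% of all models in seawater. In the treated libraries it ranked above 84.6% of them. On that scale members were moderately expressed models that moved into the upper part of the range. Mean levels reached 4.78 to 265 CPM with cUA, median 36.1, and 7.40 to 334 CPM with cGAMP, median 45.6. With both compounds 92 members had a mean of at least 20 CPM and 10 had at least 100 CPM. Counts were not sparse. The lowest count of a member in any control library was 10, and the lowest in any treated library was 83.

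**Figure D1:**
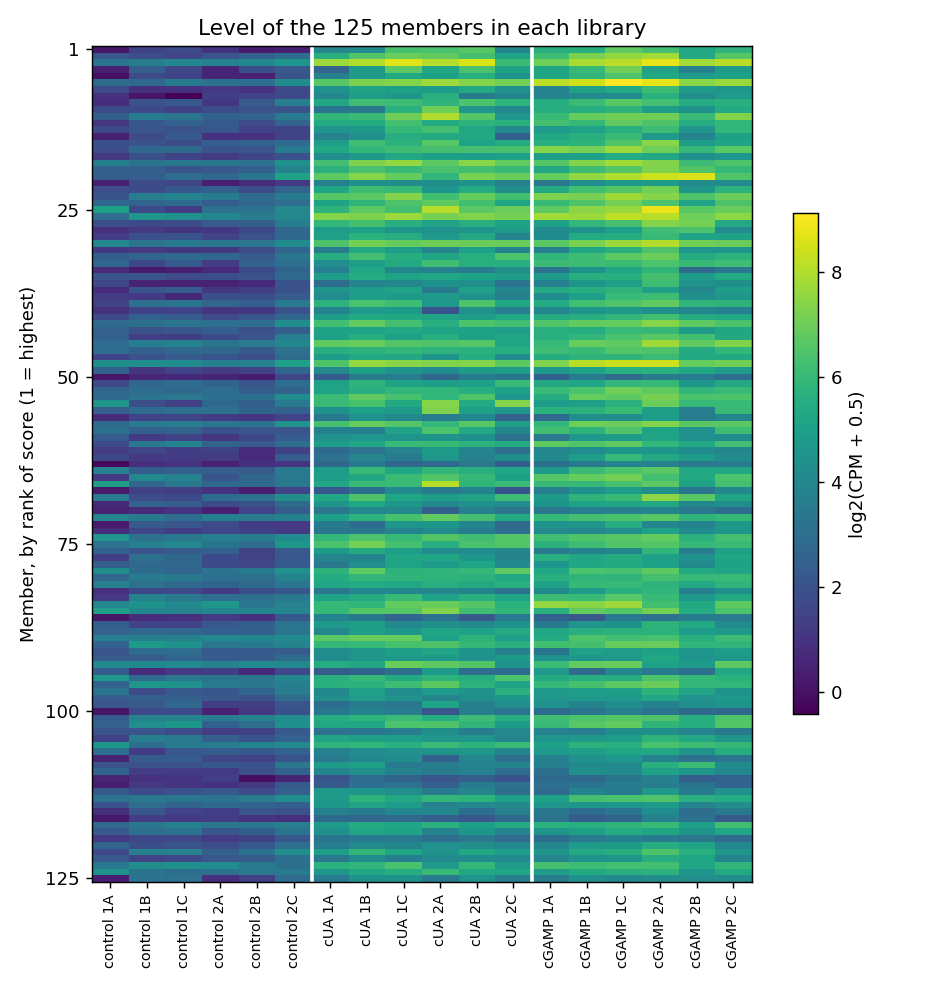
Level of each of the 125 members (one line each, ordered by score) in the 18 libraries (columns), as log2(CPM + 0.5) on the colour scale, with white lines between treatments. The 6 control columns are darker than the 12 treated columns along every line, which is how the members were chosen, and control 2C is the brightest control for many members.

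The control libraries held 27090845 to 41800393 counts each, the cUA libraries 24307409 to 34361709 and the cGAMP libraries 22175801 to 28033513. The libraries control 1A and cUA 2A stood apart in composition, as their TMM scaling factors were 0.714 and 0.619 where all other libraries had 0.862 to 1.23. Their median model stood at 1.31 and 1.08 CPM where the others had 1.52 to 3.21 CPM. Results that turn on them are given with and without them.

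The members together held a small part of each library. Their share of all counts was 0.0654% to 0.113% in control libraries, median 0.0772%. It was 0.434% to 0.682% with cUA, median 0.616%, and 0.555% to 1.06% with cGAMP, median 0.699%. The share with cGAMP overlapped that with cUA, and neither overlapped control. On the log2(CPM + 0.5) scale the mean over members was 2.38 ± 0.292 (SD, n = 6) in control, 5.02 ± 0.264 (SD, n = 6) with cUA and 5.39 ± 0.378 (SD, n = 6) with cGAMP. Control libraries lay between 2.14 and 2.93, cUA libraries between 4.67 and 5.25 and cGAMP libraries between 5.001 and 5.89.

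Control 2C was the highest of the controls in 70 of the 125 members and lay above the mean of the other controls in 109. It therefore set the level that treated libraries had to exceed for most members. Without it, 290 models in place of 241 met the rule's conditions. The median score of the same 125 members rose from 6.32 to 6.76, and 114 of them were chosen again. Leaving out any control can only loosen the required separation, and the 290 was not set beside the omission of other controls. Without a single other control, 111 to 121 members were chosen again. The lowest treated library was cUA 1A for 37 members, cUA 2C for 31, cUA 2A for 17, cGAMP 1A for 16 and cGAMP 2B for 14. The highest treated library was cGAMP 2A for 57 members and cGAMP 1C for 33. High and low libraries were thus shared by many members, and what these libraries have in common was not tested.

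**Figure D2:**
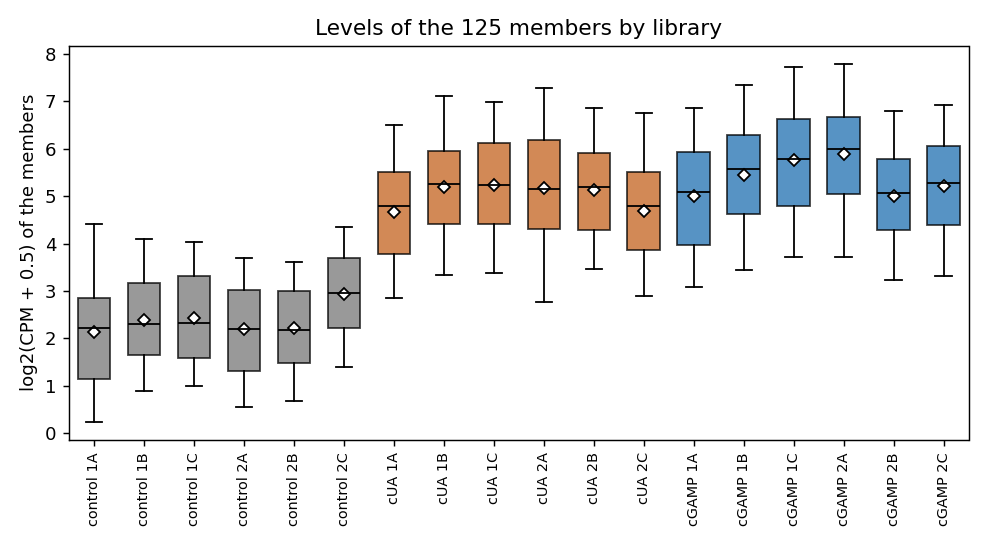
Distribution over the 125 members of log2(CPM + 0.5) in each library, with boxes from the first to the third quartile, a line at the median, whiskers from the 5th to the 95th percentile and diamonds at the mean. Control 2C has the highest mean of the controls at 2.93, below the lowest treated mean of 4.67 in cUA 1A.

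The ratio of mean levels between treatment and control ran from 3.49 to 35.9 with cUA, median 6.51, and from 3.502 to 43.2 with cGAMP, median 8.91. Both ratios exceeded 5 in 82 members and 10 in 28. The distance between groups was narrower than these ratios of means. The lowest treated library divided by the highest control gave 1.006 to 7.69, median 1.98. It was at least 2 in 61 members and under 1.2 in 16, so single libraries of treated and control specimens came close in some members. Within groups the median coefficient of variation of members was 42.8% in control, 34.4% with cUA and 36.9% with cGAMP. In all models of the control window it was 41.1%, 43.9% and 33.4%.

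In a fit over 21375 models with edgeR's quasi-likelihood test, all 125 members passed the filter on low counts. The median log2 fold change of members was 2.84 with cUA, range 1.86 to 5.41, and 3.32 with cGAMP, range 1.82 to 5.65, where the median of all tested models was -0.02 and -0.07. All 125 were called higher at an adjusted p below 0.05 with cUA, beside 5.91% of all tested models, and all 125 with cGAMP, beside 9.22%. As the rule selected on these same contrasts, nothing is read from those counts. Both comparisons use the same 6 control libraries. With control 1A and cUA 2A left out, the medians were 2.81 and 3.48.

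The member with the highest score was Spis_Spis3943_1, a model with a single coding segment of 999 bases on scaffold NW_019217821.1, bases 923844 to 925557, minus strand. Its control libraries lay between 0.598 and 2.82 CPM, median 1.13. With cUA they ran from 15.0 to 99.5 CPM, median 49.5, and with cGAMP from 38.9 to 111 CPM, median 50.7. The cUA libraries fell into a low and a high set. cUA 1A, 1B and 2C had 15.3, 17.5 and 15.0 CPM, while cUA 1C, 2A and 2B had 81.5, 82.5 and 99.5 CPM, and both colonies were in both sets. Its log2 fold change was 5.41 ± 0.66 (SE) with cUA and 5.65 ± 0.65 with cGAMP, beyond every other member.

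Spis_XP_022800769_1 (NW_019217795.1, bases 207788 to 211553, minus strand) came next by score. It went from 2.49 to 7.42 CPM in control, median 3.92, to 33.7 to 119 CPM with cUA, median 84.5, and 40.1 to 221 CPM with cGAMP, median 121. No treated library came within 4-fold of the highest control, as the lowest treated level was 4.55 times that control. Spis_XP_022806513_1 (LOC111343600, 14 coding segments) started higher, at 9.11 to 23.6 CPM, median 14.3. It had 66.4 to 402 CPM with cUA, median 263, and 129 to 452 CPM with cGAMP, median 257, the highest mean with cUA of any member. The compounds gave this model nearly the same median.

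Spis_XP_022800334_1 was the member with the widest distance between groups. Control libraries had 1.62 to 5.54 CPM, median 4.14, cUA libraries 42.6 to 77.4 CPM, median 47.6, and cGAMP libraries 44.4 to 111 CPM, median 70.2. Its lowest treated library was 7.69 times its highest control. Spis_XP_022797007_1, a single coding segment of 729 bases, stood at the other end among the leading members. It had 0.825 to 4.96 CPM in control, median 2.81, 5.95 to 101 CPM with cUA, median 34.9, and 12.6 to 131 CPM with cGAMP, median 34.9. Here cUA 1A was only 1.199 times the highest control although the means differed 17.4-fold, and the log2 fold change with cUA was 3.97 in colony 1 alone and 4.33 in both colonies.

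Other leading members had low and narrow control levels. Spis_XP_022795087_1 had 1.38 to 2.85 CPM in control, 20.4 to 42.4 CPM with cUA and 13.4 to 68.6 CPM with cGAMP. Spis_XP_022796607_1 had 2.29 to 4.004 CPM in control, 16.7 to 78.8 CPM with cUA and 22.9 to 69.3 CPM with cGAMP. Spis_XP_022790575_1 had 2.97 to 7.05 CPM in control, 30.1 to 97.2 CPM with cUA and 30.0 to 173 CPM with cGAMP. In these 3 models every treated library was more than 4 times every control.

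Spis_Spis2441_1 had 0.484 to 3.58 CPM in control, 12.8 to 48.1 CPM with cUA and 27.4 to 86.3 CPM with cGAMP. Spis_XP_022783936_1 had 0.239 to 2.69 CPM in control, 11.1 to 46.2 CPM with cUA and 14.1 to 48.8 CPM with cGAMP. The controls of both models were widely spread, yet every treated library was more than 3 times the highest of them. Spis_XP_022795876_1, the longest of the leading members with a coding length of 6099 bases, had 4.98 to 10.9 CPM in control, 23.5 to 250 CPM with cUA and 65.2 to 158 CPM with cGAMP. Its cUA libraries spread more than 10-fold while its cGAMP libraries spread less than 3-fold.

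In some leading members a single library lay far from its group. Spis_XP_022806348_1 had 1.25 to 12.4 CPM in control, where control 2C was the highest, 37.8 to 85.2 CPM with cUA and 44.0 to 98.7 CPM with cGAMP. Control 2C was also the highest control of Spis_Spis5919_1, at 20.3 CPM with a group median of 9.83, and of Spis_XP_022795058_1, at 14.2 CPM with a median of 5.07. The treated libraries of these models began at 68.7 and 38.9 CPM, above control 2C in each case. Spis_XP_022797919_1 had 2.08 to 3.51 CPM in control, 9.49 to 130 CPM with cUA and 21.1 to 54.0 CPM with cGAMP, and its highest cUA value came from cUA 2A. It overlaps Spis_XP_022797920_1 on the same strand over 1851 bases, and that model, no member, went from a mean of 3.58 to 37.2 CPM, so how their reads were divided is uncertain.

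**Figure D3:**
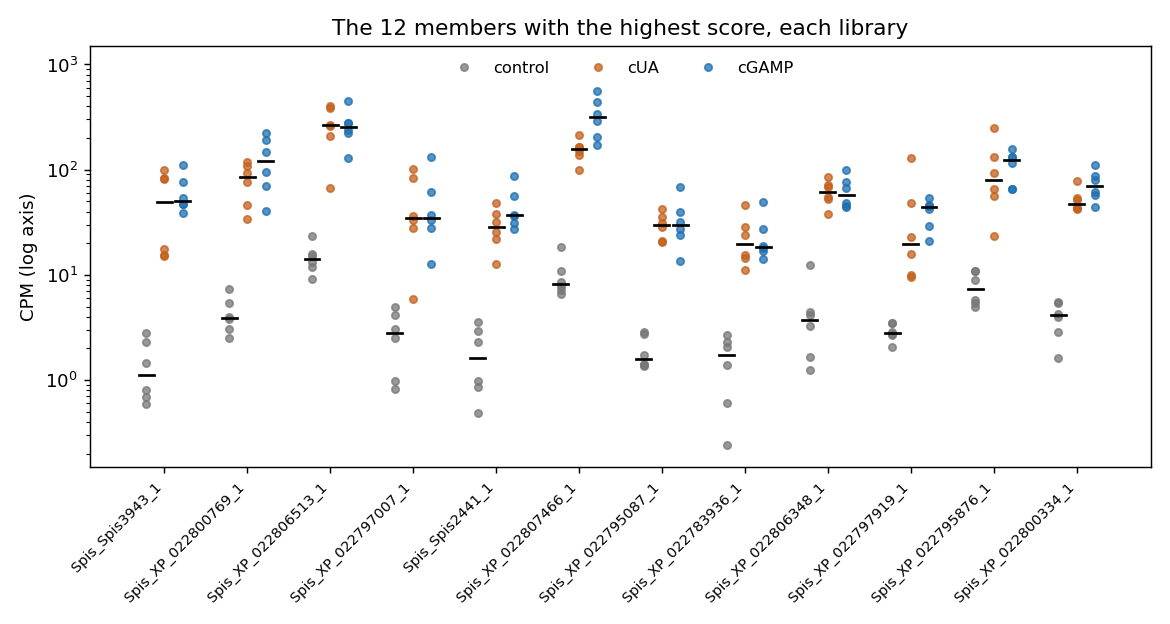
CPM on a log axis in each of the 18 libraries for the 12 members with the highest score, grey for control, orange for cUA and blue for cGAMP, with black bars at group medians. Spis_XP_022800334_1 has the widest gap, its lowest treated library being 7.69 times its highest control, and Spis_XP_022797007_1 the narrowest of the 12, at 1.199 times.

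At the end of the ranking the scores lay close together. The last 5 members had scores of 3.566 for Spis_XP_022794890_1, 3.560 for Spis_Spis24394_1, 3.526 for Spis_XP_022801603_1, 3.502 for Spis_XP_022795349_1 and 3.485 for Spis_XP_022787109_1. Models on the scaffolds set aside are not among these. The first 5 left out had 3.476 for Spis_XP_022799519_1, 3.463 for Spis_XP_022801966_1, 3.456 for Spis_Spis16543_1, 3.439 for Spis_XP_022797780_1 and 3.425 for Spis_XP_022805374_1. The first of these 5 lies on NW_019218118.1, which the rule set aside whatever the score. The scores ran on across the rank limit without a gap. Spis_XP_022787109_1 shows the kind of member found there. It had 0.797 to 8.67 CPM in control, median 4.57, 10.8 to 22.4 CPM with cUA, median 16.6, and 11.9 to 19.9 CPM with cGAMP, median 18.5. Controls 1B, 1C and 2C had 8.67, 8.28 and 7.05 CPM, close to the lowest treated libraries. In colony 1 alone its log2 fold changes were 1.58 with cUA and 1.78 with cGAMP, against 2.01 and 2.19 in both colonies. Those of Spis_XP_022795349_1 were 1.04 and 1.49 in colony 1 alone, against 1.95 and 1.82.

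Levels can be compared between models only per length. Per kilobase of coding length, members had 0.668 to 46.1 CPM in control, median 3.85, and medians of 27.0 CPM with cUA and 34.5 CPM with cGAMP. The highest level per length in treated libraries was that of Spis_XP_022778000_1, a short model of 360 coding bases named here after its values were seen. It had 43.0 CPM per kilobase in control, 445 with cUA and 608 with cGAMP. On the plain CPM scale its controls ran from 7.43 to 23.3, its cUA libraries from 139 to 208 and its cGAMP libraries from 130 to 299, so its lowest treated library was 5.57 times its highest control. The model next to it, Spis_XP_022777999_1, is a member as well, with 3.67 to 13.8 CPM in control, 73.9 to 164 CPM with cUA and 88.9 to 215 CPM with cGAMP.

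The comparison of cUA with cGAMP asked whether the compounds raised the members to the same level at the same dose and time. Most members had higher levels with cGAMP, but no single member passed the test, at 0 of 125 beside 0% of all 21375 models. By mean CPM 106 members were higher with cGAMP and 19 with cUA. The ratio of cGAMP to cUA was 0.652 to 2.31, median 1.30, and reached 1.5 in 36 members and 2 in 4. The rule took the smaller of the ratios to control, which set a floor for the weaker compound but no limit for the stronger. Levels with both compounds thus entered the choice of the members.

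By edgeR's quasi-likelihood test with Benjamini-Hochberg adjustment over all models, the smallest adjusted p for cUA against cGAMP was 0.345 among members and 0.132 among all models. At an unadjusted p below 0.05 there were 27 members, or 21.6%, all lower with cUA. Of all tested models 2.49% were lower with cUA at this level. The log2 fold change of cUA against cGAMP had a median of -0.40 over members, with quartiles of -0.63 and -0.13 and a range of -1.25 to 0.73. It was negative in 108 members, or 86.4%, as in 43.8% of all tested models. Members share the same libraries, so these counts are not separate observations. Other models raised by both compounds were not set beside them. The median 95% interval of a member's difference reached 0.74 to either side. In 42 members the interval lay wholly within a 2-fold difference in either direction, and in 79 it reached a level more than 2-fold lower with cUA. Of these 79 intervals 25 lay wholly below 0, and the other 54 held both 0 and a 2-fold lower level. DESeq2 and limma-voom also called 0 members, with 102 and 0 calls among all models. No member had all 6 cGAMP libraries above all 6 cUA libraries, beside 0.154% of tested models.

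**Figure D4:**
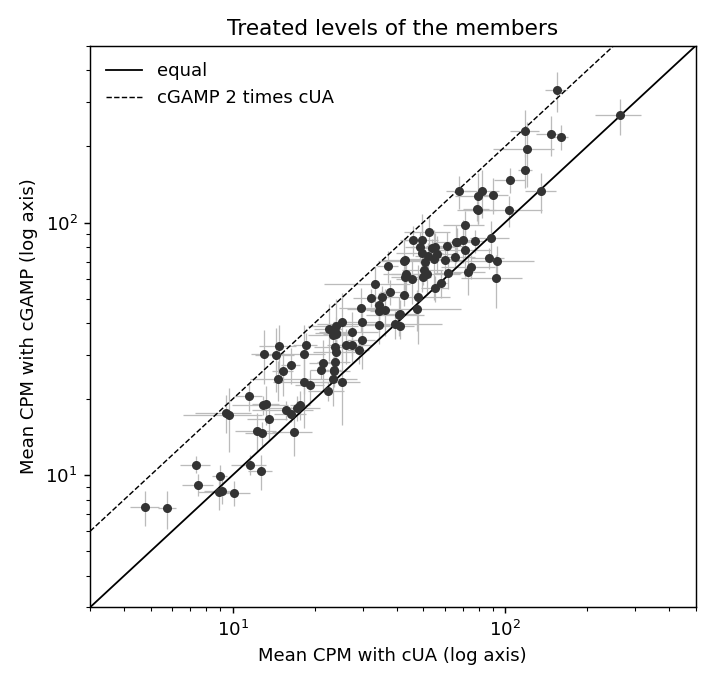
Mean CPM with cGAMP against mean CPM with cUA for the 125 members on log axes, with bars of 1 standard error (n = 6 each), a solid line of equal levels and a dashed line where cGAMP is 2 times cUA. Of the points, 106 lie above the line of equal levels and 4 on or above the dashed line.

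The difference moved when single libraries were left out. Without cUA 2A the median was -0.63 and 55 members, all lower with cUA, had an unadjusted p below 0.05, as had 1359 of all 21807 models in that direction. There 2 members passed the adjusted threshold, among 45 models. These were Spis_XP_022793898_1 at -1.21, adjusted p = 0.0444, and Spis_XP_022809271_1 at -1.16, adjusted p = 0.0356, by edgeR. With control 1A also left out, 14 members were called, all lower with cUA, among 729 calls in 21700 models. Without cGAMP 2A the median was -0.25, and 13 members were lower with cUA at an unadjusted p below 0.05, as were 493 of all 21825 models. In colony 1 alone the median was -0.73 and in colony 2 alone it was -0.13. The difference between the colonies in this contrast was not tested.

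Among the named members, those with the largest differences show how the groups overlapped. In Spis_XP_022807466_1 (LOC111344498) cUA libraries ran from 99.7 to 211 CPM, median 157, and cGAMP libraries from 171 to 558 CPM, median 316, where controls had 6.63 to 18.3 CPM. The log2 difference of cUA from cGAMP was -1.13, 95% interval -1.88 to -0.38, and the ranges shared the stretch from 171 to 211 CPM. In Spis_XP_022786035_1 (LOC111326328) cUA libraries ran from 59.4 to 166 CPM and cGAMP libraries from 91.6 to 389 CPM, a log2 difference of -1.02, interval -1.83 to -0.20. At the other end were members with nearly equal levels. Spis_XP_022784637_1 had 18.5 to 37.4 CPM with cUA and 20.1 to 43.4 CPM with cGAMP, a log2 difference of -0.13, interval -0.68 to 0.41, and Spis_XP_022806513_1 had -0.05, interval -0.73 to 0.64. For these a 2-fold difference lay outside the interval, and a smaller one did not. Spis_XP_022797007_1, with -0.03 and an interval of -1.29 to 1.24, had libraries too variable for such a bound.

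Whether the members differed between colonies was asked next. The mean over members of log2(CPM + 0.5) was 2.32 ± 0.159 in colony 1 and 2.45 ± 0.420 in colony 2 in seawater (SD, n = 3 each). With cUA it was 5.04 ± 0.321 and 4.997 ± 0.264, and with cGAMP 5.401 ± 0.379 and 5.37 ± 0.461. The colonies lay within the spread of their specimens under each treatment. No member was called between colonies by edgeR, beside 0% of all models, and 8 members had an unadjusted p below 0.05, or 6.4% beside 8.29% of all models. Without control 1A, 2 members were called higher in colony 2, Spis_XP_022777771_1 by a log2 fold change of 1.45 and Spis_XP_022793415_1 by 0.71, each at an adjusted p of 0.0417 by edgeR. In that fit 272 of 21788 models were called, so the share of members was close to that of all models.

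The responses to the compounds were compared between colonies by an interaction term. For cUA 0 members were called, beside 0% of all models, and 16 members, or 12.8%, had an unadjusted p below 0.05 beside 12.0% of all models. For cGAMP 0 members were called, beside 0%, and 2 members, or 1.6%, had an unadjusted p below 0.05 beside 5.24%. The median interaction of members for cUA was 0.52 towards colony 2, with a median SE of 0.67, and it turned to -0.16 when libraries were scaled by total counts only and to -0.08 without control 1A and cUA 2A. The member with the smallest adjusted p for cUA was Spis_XP_022789880_1, with 7.56, 11.4 and 9.69 CPM with cUA in colony 1 and 34.1, 13.3 and 18.5 CPM in colony 2. All cUA libraries of colony 2 lay above those of colony 1, while with cGAMP the colonies overlapped. The interaction compares changes from control, so the controls of each colony and the scaling enter it as well. Its interaction was 2.82 ± 0.63 (SE), adjusted p = 0.318 by edgeR, and it was called by DESeq2, at 2.90 with an adjusted p of 0.00737, and by edgeR without cUA 2B, at 3.20 with an adjusted p of 0.0494. In these fits DESeq2 called 232 of 21375 models and edgeR 92 of 21798, with this 1 member among each. Without cUA 2A, edgeR called 0 members and 0 models for this interaction. There the smallest adjusted p of any member was 0.754, 5 members had an unadjusted p below 0.05, and the median interaction was 0.13.

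The structure of the members was set beside that of other models without a test. Their coding length was 264 to 8307 bases, median 1032, against medians of 1104 in the window and 1173 in all tested models. They had a median of 4 coding segments and at most 21, and 21 members, or 16.8%, had a single segment, against 16.6% in the window and 13.7% of tested models. The median span on the scaffold was 3381 bases, against 3983 and 4823. Of the members 74, or 59.2%, lay on the plus strand, against 51.8% and 51.2%. The gene predictor Gnomon was the source of 117 members and AUGUSTUS of 7, and 1 had no named source.

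Some members lay side by side. In 10 places adjoining models were both members, which took in 23 members, or 18.4%, with 1 run of 4, 1 run of 3 and 8 pairs. In the order of the reference genome, where 64 members could be placed, 8 pairs of members lay within 3 coding genes of each other, and in all 8 the pair was on a single deposited scaffold as well.

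The run of 4 was on scaffold NW_019217852.1, all on the plus strand between bases 333847 and 354940. Spis_XP_022784639_1 had 0.825 to 4.33 CPM in control, median 1.91, 5.14 to 45.2 CPM with cUA, median 30.2, and 14.0 to 65.3 CPM with cGAMP, median 34.7. Spis_XP_022784637_1 had 1.71 to 3.40 CPM in control, median 2.43, with medians of 29.9 CPM with cUA and 30.5 CPM with cGAMP. Spis_XP_022784664_1 had 0.774 to 2.88 CPM in control, median 1.44, with medians of 18.9 and 18.1 CPM. These 3 models had similar medians with both compounds. Spis_XP_022784703_1, the last of the run, had 0.541 to 3.40 CPM in control, median 2.21, 3.84 to 14.2 CPM with cUA, median 10.97, and 6.29 to 12.7 CPM with cGAMP, median 8.08, and its groups nearly touched.

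Another member lay just upstream of this run. Spis_XP_022784636_1 had 1.96 to 6.31 CPM in control, median 3.27, 14.6 to 50.4 CPM with cUA, median 35.6, and 18.2 to 63.1 CPM with cGAMP, median 37.99. It has the same coding length as Spis_XP_022784639_1, 1128 bases in 2 segments, and if they are near copies their reads may have been split, which was not tested. The model between them, Spis_XP_022784640_1, was below the window at 0.376 CPM in control and had log2 fold changes of 3.98 with cUA, adjusted p = 0.0725, and 4.26 with cGAMP, adjusted p = 0.0249, by edgeR. The model before them, Spis_XP_022784635_1, rose by 2.65 and 2.20, adjusted p = 0.00389 and 0.0053 by edgeR. On the other side the change ended at once. Spis_XP_022784665_1, next after the run, had -0.14 and -0.49 and was not called.

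The run of 3 was on scaffold NW_019217868.1 between bases 298113 and 313843. Spis_XP_022786062_1 on the minus strand had 2.69 to 11.6 CPM in control, median 3.75, 33.5 to 79.3 CPM with cUA, median 46.2, and 31.4 to 163 CPM with cGAMP, median 69.1. Spis_XP_022786045_1 on the plus strand had 1.34 to 6.24 CPM in control, median 1.71, 20.4 to 31.7 CPM with cUA, median 25.1, and 16.8 to 83.5 CPM with cGAMP, median 26.1. The second lies within the span of the first over 1472 bases, and since the strand setting of the counting is not given, their reads cannot be told apart with certainty. Spis_XP_022786035_1 had 4.87 to 32.5 CPM in control, median 6.995, with medians of 118 CPM with cUA and 224 CPM with cGAMP. In all 3 the highest control was control 2C, and mean levels with cGAMP were 1.72, 1.60 and 1.94 times those with cUA. The next model, Spis_XP_022786044_1, fell by 1.61 with cUA and by 2.53 with cGAMP on the log2 scale, adjusted p = 0.011 and 0.000215 by edgeR.

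The highest scoring member, Spis_Spis3943_1, was in a pair with Spis_XP_022781317_1 (bases 936396 to 940028, plus strand). The second had 3.87 to 9.12 CPM in control, median 6.43, 13.9 to 36.1 CPM with cUA, median 22.6, and 22.1 to 43.6 CPM with cGAMP, median 33.7. Its mean ratios of 3.66 and 4.97 were far smaller than the 35.9 and 43.2 of its neighbour. Another pair, on scaffold NW_019217800.1, joined Spis_XP_022807466_1 on the minus strand (bases 70291 to 75279) and Spis_XP_022807487_1 on the plus strand (bases 76205 to 79404). The second had 3.07 to 10.5 CPM in control, 38.2 to 80.0 CPM with cUA and 60.4 to 203 CPM with cGAMP. Means with cGAMP were 2.16 and 1.96 times those with cUA, so both members of this pair were among those that leaned to cGAMP.

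**Figure D5:**
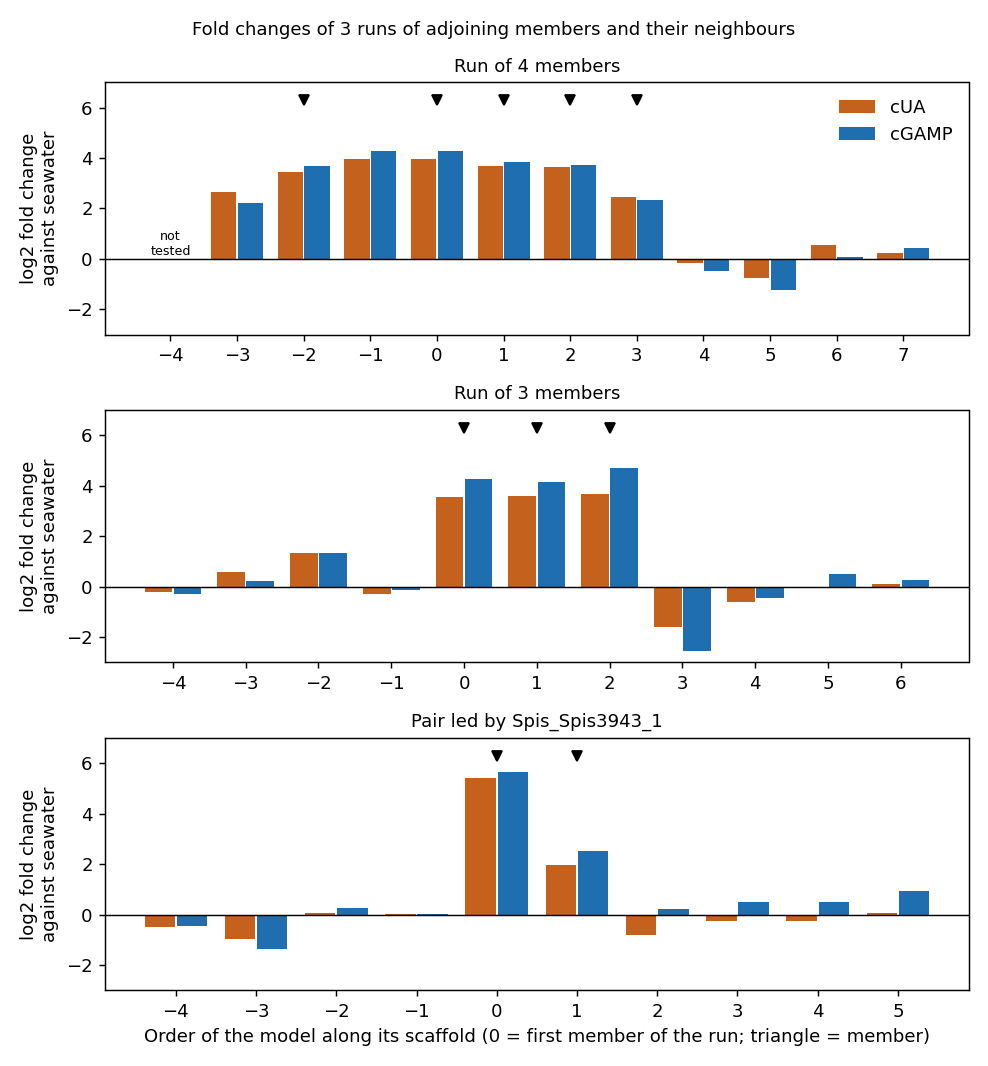
Log2 fold change against seawater with cUA (orange) and cGAMP (blue) for models in their order along the scaffold around the run of 4 members, the run of 3 members and the pair led by Spis_Spis3943_1, with triangles over members. The high bars are next to each other and give way to bars near 0 or below within 1 model on at least one side, as at Spis_XP_022784665_1 with -0.14 and -0.49.

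The rule did not use whether a model lay next to a member. Neighbours in the control window were still candidates for it, so this comparison is not independent of the choice. Neighbours that overlap a member may share its reads, which was not tested. Of 201 non-member neighbours 164 were tested, and 41 of these, or 25%, were higher with both compounds at an adjusted p below 0.05 by edgeR, beside 4.95% of all tested models. Lower with both were 4, beside 3.80%. Of the 41, 19 were in the control window, 13 had control levels of at least 20 CPM and 9 had under 1 CPM, so they came from below, within and above the window. The median neighbour had a log2 fold change of 0.21 with cUA and 0.26 with cGAMP, against -0.02 and -0.07 for all tested models, so the typical neighbour moved little. When each colony was fitted alone, such neighbours were 19 of 160 tested in colony 1, or 11.9%, beside 1.95% of models. In colony 2 they were 16 of 157, or 10.2%, beside 1.60%.

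Overlapping models bear on a few members. 9 members overlapped another model in their spans, 5 of them on the opposite strand and 4 on the same strand. For Spis_XP_022797194_1, named here for its overlaps, the larger partner Spis_XP_022797181_1 on the opposite strand had a mean of 71.9 CPM in control and 211 CPM in treated libraries. Whether reads of such partners entered the members' counts was not tested.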

How the data were processed

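Per the labels' protocols, total RNA was enriched for messenger RNA on oligo(dT) beads and made into libraries with a directional kit. The deposited values are raw counts of reads per gene model. The tools STAR, featureCounts and DESeq2 come per the submitters' processing notes. Not given in the sources used here were their versions and settings, the genome build, the strand setting and the handling of reads with several matches. Models that overlap, and near copies, are therefore uncertain. Positions are given as in the deposited annotation, whose coordinate columns are in another unit than the counts. A reference table of the assembly jaStyPist1.2 served for symbols and gene order only.

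From the counts CPM was computed with column totals, and log2 CPM with 0.5 added. The members and lists were chosen with earlier results of these data known. Scaffolds were dropped after the 150 highest scores had been taken. edgeR 4.0.16 in R 4.3.3 was fitted to all 18 libraries with TMM factors, filterByExpr (21375 models kept), colony plus treatment (14 residual degrees of freedom), and a second model with their interaction (12). Calls are at a Benjamini-Hochberg adjusted p below 0.05. Intervals of the difference between compounds are 95% intervals from these fits, not adjusted for the number of members. The code was tested on simulated data. The first 5 models past the rank limit are named, whatever their scaffold. Named members are the 20 of highest score, the 5 of lowest score, those called, and 3 runs of adjoining members. These are the run of 4, the run of 3 and, of the 8 pairs, the pair with the highest scoring member. Others were named after their values were seen. Lists of pathways and cell type markers were not used, as no model carries a description. Other scalings, filters, tools, designs and sets of libraries were tried. No pair of libraries of a group agreed within sampling noise, as chi-square over its degrees of freedom was at least 19.9. The p-values measure the spread between specimens of 2 colonies.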

Additional observations from a re-analysis of the deposited data

Results flagged for a closer look

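In 10 of 93 groups of 6 libraries examined, 1 library lay farther from the rest than Dixon's 95% limit. Chance gives this in about 1 of 20 groups of normally distributed values. Nearly all groups here were of plain CPM, and every flagged library was the highest of its group, so that rate may not apply. Of the 10 flags, 7 concerned control 2C, which is 1 library seen through several members.

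Control 2C was high in Spis_XP_022806348_1 with 12.4 CPM, where the next control had 4.48 CPM. In Spis_Spis5919_1 it had 20.3 CPM against 12.3, and in Spis_XP_022795058_1 14.2 CPM against 5.28. It also lay apart in all 3 members of the run on scaffold NW_019217868.1, Spis_XP_022786035_1 with 32.5 CPM against 9.31, Spis_XP_022786062_1 with 11.6 CPM against 5.003 and Spis_XP_022786045_1 with 6.24 CPM against 2.57. The mean of log2(CPM + 0.5) over all 125 members was 2.93 in control 2C and 2.43 in the next control.

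Control 1A was high in Spis_XP_022795349_1, with 20.9 CPM against 10.7 in the next control. cUA 2A was high in Spis_XP_022797919_1, with 129.7 CPM against 48.8 in the next cUA library, and cUA 1C in Spis_XP_022800334_1, with 77.4 CPM against 53.8. The reasons were not tested.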

How the results depend on the processing

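The count of 0 members called between the compounds became 14 with control 1A and cUA 2A left out together and ran from 0 to 2 when single libraries were left out. Such ranges were 0 to 2 for calls between colonies, 0 to 1 and 0 to 0 for the interactions with cUA and cGAMP, 124 to 125 and 125 to 125 for members higher with cUA and cGAMP, 32 to 48 for neighbours higher with both, and 111 to 124 for members chosen again by the rule. Medians ran from 2.57 to 3.01 for cUA, from 3.21 to 3.49 for cGAMP and from -0.63 to -0.25 for cUA against cGAMP. DESeq2 called 1 member for the cUA interaction, among 232 models. In colony 1 alone 93 members were called higher with cUA, among 474 models, and 116 with cGAMP, among 1196. In colony 2 alone the counts were 109 among 392 and 117 among 527. These fits have 3 libraries per group. In colony 1 alone the medians were 2.51 for cUA and -0.73 for cUA against cGAMP. The count of neighbours was 19 in colony 1 alone and 16 in colony 2 alone. Of 1740 alternative fold changes of the 30 named members against control none reversed and 8 lost their call, all in a single colony. The rule selected on these contrasts and the fits share libraries, so a reversal was hardly possible. Nothing is read from this, nor from the counts of members higher than control.

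The rule chose 111 of the members again on TMM scaled CPM and 96 with no separation of libraries required. In colonies 1 and 2 alone it chose 99 and 89. It chose 108 with the window from 2 CPM and all 125 when scaffolds were dropped first. Both of these outcomes were fixed in advance, as the changes only removed competitors, and nothing is read from them. Dropping scaffolds first, and the alternatives for neighbours and for members higher with each compound, were added after seeing the data. Scaling by total counts only moved the median of all models to -0.10 with cUA and -0.24 with cGAMP.

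Whether specimen letters pair the libraries was not settled by a check of correlations of deviations. Of these 7 of 18 were over 0.1, range -0.487 to 0.381. The own letter was highest in 16 of 36 comparisons, each among 3 libraries. With the replicate block the medians were 2.78, 3.36 and -0.45, and 0 members were called between the compounds. The lowest count of a member in a library was 10 reads, which limits the precision of the lowest control values.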
